A study of Mus musculus with 3 samples.

Results

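The response of mouse embryonic stem cells to a low dose of fibroblast growth factor 4 (FGF4) was read from 2 of 3 single-cell RNA libraries, 1 without ligand and 1 at 5 ng/ml. Cells counted as intact when at most 10% of their unique molecular identifiers (UMIs, 1 per captured transcript) came from mitochondrially encoded genes and their total lay within 3-fold of the library median. These limits kept 359 of 373 barcodes at 0 ng/ml and 706 of 874 at 5 ng/ml, or 1065 cells of the 2222 barcodes in the series. The library at 50 ng/ml, with 798 intact cells of 975, served only as the reference for the size of the change.

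All 3 libraries came from E14tg2a cells, an established embryonic stem cell line of the mouse, with the genotype Fgf4 -/-. The cells were seeded in ES + LIF medium and then kept for 24 h in N2B27 medium with Chiron, an inhibitor of the kinase GSK3, and 1 µg/ml heparin, so that the controls carried the Fgf4 deletion, Chiron and heparin too. Only the FGF4 dose was stated to differ, at 0, 5 or 50 ng/ml. Each dose was 1 library without replicates, and whether the mutant line was 1 clone the sources used here do not state. Cells are not replicates of a dose, so no test between doses was made, and all intervals are 95% intervals that cover counting error only. "Higher" and "lower" therefore describe these libraries.

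FGF4 is the main FGF ligand that mouse embryonic stem cells make for themselves. It binds FGF receptors together with heparan sulfate or heparin and drives the MEK and ERK kinase cascade, whose known outputs include Sprouty and Spred inhibitors, dual-specificity phosphatases and ETS transcription factors. Loss of this signal holds the cells near a naive state, and its return permits passage to a formative state in which de novo DNA methylation factors are made.

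The intact cells held 42179626, 72865524 and 78555798 UMIs at 0, 5 and 50 ng/ml, with medians of 109945, 98083 and 93694 UMIs per cell. No barcode was shared between libraries. Embryonic stem cell markers were present at every dose, with Pou5f1 in 98.6% to 99.7% of cells and Sox2 in 98.7% to 99.6% of cells thinned to 25000 UMIs. The primitive endoderm markers Gata6, Gata4 and Sox17 were near 0 without ligand, at 0.356, 0.332 and 0.261 CPM (UMIs scaled to the library total). They were also near 0 at 5 ng/ml, at 0.0549, 0.329 and 0.0549 CPM, and stood at 2.23, 0.255 and 0.293 CPM at 50 ng/ml. Some markers of other lineages were not near 0, such as Tubb3 and Tfap2c at 108 and 46.9 CPM without ligand. Of 12 feeder fibroblast markers, 1 reached 5 CPM (Fbln1, at 72.0 CPM without ligand and 57.3 CPM at 5 ng/ml), Postn and Lum had 0 UMIs in both libraries, and the list summed to 76.5, 61.8 and 62.0 CPM at the 3 doses. The share of UMIs from mitochondrially encoded genes was 5.32%, 5.11% and 5.43%, and that from ribosomal protein genes was 27%, 25.9% and 25.6%. Fgf4 transcript, whose 3' tag may lie outside the deleted stretch and so checks nothing, was 51.9, 25 and 20.6 CPM.

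Most of the response to FGF4 was already in place at the low dose. Of 5693 genes that reached 20 CPM in either of the 2 libraries, 80 (1.41%) had gained 2-fold or more at 5 ng/ml relative to no ligand, and 74 (1.3%) had lost 2-fold or more. A further step from 5 to 50 ng/ml, a 10-fold rise in dose, moved far fewer: 2 of 5503 genes (0.0363%) gained 2-fold or more and 4 (0.0727%) lost 2-fold or more. The median log2 ratio of 5 to 0 ng/ml over all 5693 genes was 0.03, and the middle 95% of them lay between -0.72 and 0.74. Across all 3 libraries, 123 genes were at least 2-fold above the level without ligand at 5 or 50 ng/ml and 124 at least 2-fold below it, and 0 changed in opposite directions at the 2 doses. The share of the 50 ng/ml log2 change already present at 5 ng/ml had a median of 86.7% (quartiles 79.1% and 92.3%) among the higher genes and 79.2% (74.2% and 86.3%) among the lower genes. Taken as the share of the CPM difference, the medians were 77.8% and 87.1%, so which direction was nearer to completion depended on the scale.

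A gene was said to reach its full change at 5 ng/ml when it was at least 2-fold from its level without ligand and its log2 change was at least 90% of that at 50 ng/ml. This held for 39 higher genes and 16 lower genes of the 5751 with at least 20 CPM in any library (0.678% and 0.278%), or 48.75% of the 80 and 21.6% of the 74. The 5 and 50 ng/ml comparisons share the library without ligand, and the same values chose the genes, so the levels that follow are a description. On the CPM scale, 27 of the 39 higher genes and all 16 lower genes also had at least 90% of their difference at 5 ng/ml. The 6 higher genes with the largest ratios did not: the share of the CPM difference was 89.4% for Gja1, 80.3% for Dnmt3l, 83.4% for Peg10, 80.0% for Lef1, 84.5% for Pdk1 and 81.7% for Ccnd2. The ratio of 50 to 5 ng/ml had an interval that held 1 for 12 of the 39 and 5 of the 16. At the 90% limit among the higher genes, Emb (90.6%), Spred1 (91.0%), Ccnd2 (91.1%) and Mest (91.2%) lay just inside, and Enox1 (89.5%), Slc39a14 (89.3%), Mymx (89.3%) and Enpp3 (89.2%) just outside. Among the lower genes, Cd9 (90.2%), Tubb3 (90.4%), Rhpn2 (91.4%) and Cmtm7 (91.5%) lay just inside, and Itpka (89.4%), Usp46 (89.2%), Prex2 (89.0%) and Ifitm1 (88.4%) just outside.

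The promoters of 4 full-change genes are shown because these genes carry the pattern, 3 as leading higher genes and Tubb3 as the leading named lower gene. Each sequence is 300 bases of GRCm38.p6 from RefSeq, from 250 bases before to 50 bases after a transcript start, 5' to 3' on the gene's plus strand. Dnmt3l had 3 such starts and Meg3 had 2, and the start with the lowest coordinate is shown. Which start these cells used was not tested. Gja1 lies at chr10:56377050-56377349, Dnmt3l at chr10:78042037-78042336, Meg3 at chr12:109540746-109541045 and Tubb3 at chr8:123411303-123411602. Capitals mark matches to the motifs searched on both strands, which were GGAAGT and CCGGAA (ETS factors), CTTTGAT and CTTTGTT (TCF and LEF factors), TGACTCA (AP-1), CACGTG (E-box), GGGCGG (GC box) and ATTTGCAT (octamer).
Gja1: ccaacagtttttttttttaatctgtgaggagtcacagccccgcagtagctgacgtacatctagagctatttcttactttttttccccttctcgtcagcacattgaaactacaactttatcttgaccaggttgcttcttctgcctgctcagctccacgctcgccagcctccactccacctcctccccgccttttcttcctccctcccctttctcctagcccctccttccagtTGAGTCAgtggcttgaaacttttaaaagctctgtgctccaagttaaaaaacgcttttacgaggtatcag
Dnmt3l: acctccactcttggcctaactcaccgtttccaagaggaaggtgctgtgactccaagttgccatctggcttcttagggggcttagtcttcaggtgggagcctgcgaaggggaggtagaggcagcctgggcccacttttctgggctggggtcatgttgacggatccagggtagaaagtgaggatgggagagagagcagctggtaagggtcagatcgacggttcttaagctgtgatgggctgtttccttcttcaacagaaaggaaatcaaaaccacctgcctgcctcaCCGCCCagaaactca
Meg3: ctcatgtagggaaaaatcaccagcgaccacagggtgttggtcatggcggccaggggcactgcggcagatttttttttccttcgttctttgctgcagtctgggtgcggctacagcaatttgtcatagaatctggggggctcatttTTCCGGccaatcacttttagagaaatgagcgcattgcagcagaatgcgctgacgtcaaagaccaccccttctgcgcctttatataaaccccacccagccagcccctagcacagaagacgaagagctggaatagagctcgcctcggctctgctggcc
Tubb3: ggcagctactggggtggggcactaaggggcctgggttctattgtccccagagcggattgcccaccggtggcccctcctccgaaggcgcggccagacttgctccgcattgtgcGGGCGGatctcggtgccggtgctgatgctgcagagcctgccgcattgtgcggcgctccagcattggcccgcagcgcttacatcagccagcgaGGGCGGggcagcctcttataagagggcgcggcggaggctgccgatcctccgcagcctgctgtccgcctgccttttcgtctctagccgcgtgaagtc
The Gja1 window held an AP-1 match on the minus strand, the Dnmt3l window a GC box on the minus strand, the Meg3 window an ETS match on the minus strand and the Tubb3 window 2 GC boxes. RefSeq promoters were matched for 30 of the 39 higher genes (43 promoters, since some genes have several starts) and 9 of the 16 lower genes (14 promoters). GGAAGT stood in 6 of the 43 against 23.8% of all 32851 promoters in the table, CCGGAA in 4 of the 43 against 14.9%, and GGGCGG in 25 of the 43 (58.1%) against 35.7%. GGGCGG stood in 11 of the 14 promoters of lower genes. The TCF and LEF motifs and the AP-1 motif each stood in 1 of the 43 (against 3.73%, 5.85% and 5.20% of all promoters), the E-box in 5 (7.15%) and the octamer in 0 (1.74%). These are counts of letters in short windows with no test, and the table of all promoters includes genes below 20 CPM here.

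Gja1, the gene of connexin 43, from which gap junctions between cells are built, had the largest ratio of the full-change higher genes. The gene (ENSMUSG00000050953, mm10 chr10:56377330-56402513, plus strand) stood at 6.73 CPM (5.97 to 7.56) without ligand, 69.6 CPM (67.7 to 71.6) at 5 ng/ml and 77.1 CPM (75.2 to 79.1) at 50 ng/ml. It was 10.3-fold higher at 5 ng/ml than without ligand (9.18 to 11.7), and 50 ng/ml added 1.11-fold (1.07 to 1.15). The low dose carried 95.8% of the log2 change. The share of cells with at least 1 Gja1 UMI, after thinning each cell to 25000 UMIs, was 12.8%, 72.5% and 76.3% at 0, 5 and 50 ng/ml. The connexin genes Gjb5 and Gjc1 did not share this rise: Gjb5 was 9.55, 3.91 and 4.02 CPM and Gjc1 was 68.7, 78.4 and 71.5 CPM. Of the 5 measured gap-junction genes, Gja1 alone was higher by at least 2-fold, while Gjb5 was lower by at least 2-fold.

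Dnmt3l followed closely. It lacks catalytic activity itself and assists the enzymes that lay down new DNA methylation. Its level (ENSMUSG00000000730, mm10 chr10:78041947-78063622, plus strand) was 13.7 CPM (12.6 to 14.9), 141 CPM (138 to 143) and 172 CPM (169 to 175) at the 3 doses, 10.2-fold higher at 5 ng/ml than without ligand (9.41 to 11.1). The low dose carried 92.1% of the log2 change but 80.3% of the CPM difference, and 50 ng/ml added 1.22-fold (1.19 to 1.25). Cells with a Dnmt3l UMI made up 25.3%, 88.4% and 92.9%. Its partner enzymes changed less: Dnmt3b was 57.0, 158 and 186 CPM, 2.77-fold higher at 5 ng/ml (2.65 to 2.90), and Dnmt3a was 47.9, 81.7 and 94.1 CPM. Neither reached 90% of its log2 change, with 86.2% for Dnmt3b and 79.1% for Dnmt3a. The maintenance enzyme Dnmt1 stood at 148, 156 and 151 CPM. Of 8 measured DNA methylation genes, Dnmt3l and Dnmt3b were beyond 2-fold, both higher, with a median log2 ratio of 0.36. Over all 9509 genes with at least 5 CPM in any library, the background for these gene groups, 212 (2.23%) were higher and 205 (2.16%) lower by that limit, with a median of 0.02.

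**Figure D1:**
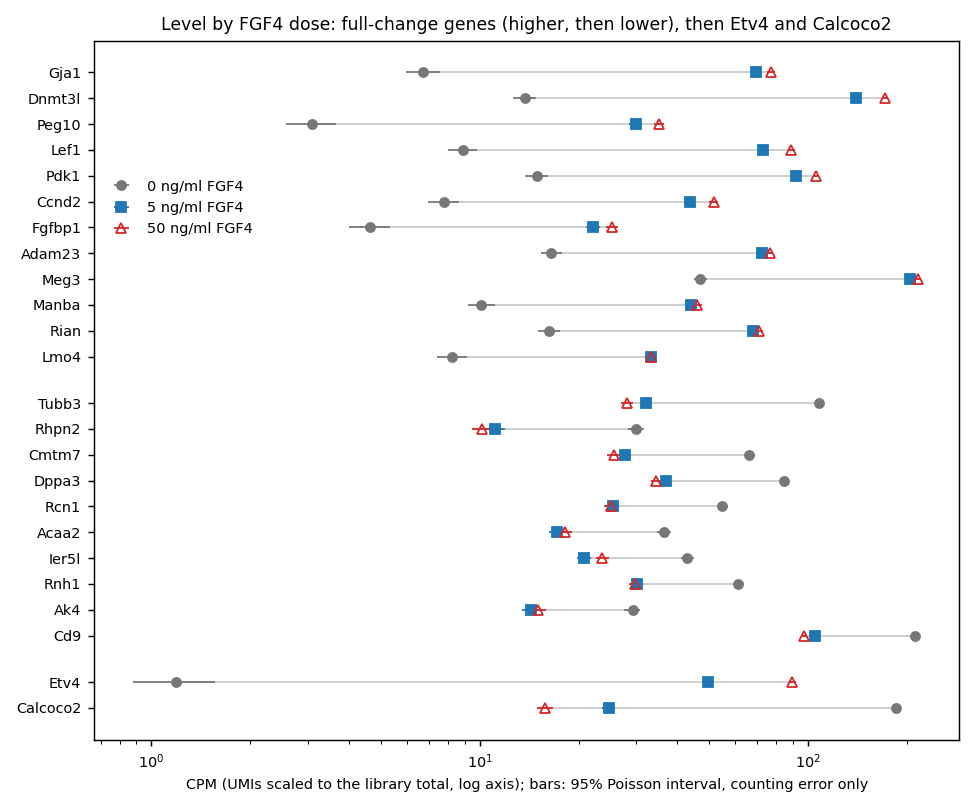
Level of the 12 full-change higher genes and 10 full-change lower genes with the largest ratios, predicted genes left out, and of Etv4 and Calcoco2, in CPM on a log axis. Points are libraries, bars are 95% Poisson intervals for counting error, and the 5 and 50 ng/ml points lie close together on the far side of 0 ng/ml for the full-change genes and further apart for Etv4 (49.7 and 89.7 CPM).

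The other higher genes that led the full-change set included signalling, metabolic and cell-cycle genes. Lef1, a transcription factor that acts with beta-catenin in Wnt signalling, was 8.87, 73.0 and 89.1 CPM, 8.23-fold higher at 5 ng/ml (7.41 to 9.17). Pdk1, the pyruvate dehydrogenase kinase that restrains entry of pyruvate into the citric acid cycle, was 14.9, 92.0 and 106 CPM, 6.17-fold higher (5.68 to 6.71). Ccnd2, which encodes the G1 cyclin D2, was 7.78, 43.7 and 51.7 CPM, 5.61-fold higher (5.01 to 6.31). In each of these genes the 50 ng/ml level was 1.15-fold to 1.22-fold above the 5 ng/ml level. Fgfbp1, a secreted protein that binds FGFs, was 4.62, 22.1 and 25.3 CPM. Adam23, a catalytically inactive member of the ADAM family of surface proteins, was 16.5, 72.5 and 76.4 CPM. Manba, the lysosomal beta-mannosidase, was 10.1, 43.9 and 45.9 CPM, and Lmo4, a LIM-domain transcriptional cofactor, was 8.25, 33.2 and 33.2 CPM. Adam23, Manba and Lmo4 showed little or no further step: the ratio of 50 to 5 ng/ml was 1.05 (1.02 to 1.09), 1.05 (0.997 to 1.10) and 1.00 (0.945 to 1.06).

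Neighbours of these genes in their families mostly stayed within 2-fold. Among 12 measured G1 cyclins, kinases and inhibitors only Ccnd2 was 2-fold higher, while Ccnd1 was 158, 202 and 201 CPM and Ccnd3 was 75.1, 84.3 and 90.5 CPM. Cdkn1b, which encodes the cyclin-dependent kinase inhibitor p27, lay just short of 2-fold at 24.0, 12.1 and 10.2 CPM (1.99-fold lower, 1.81 to 2.18). Of 20 S-phase genes and 20 genes of G2 and M phase, 0 were beyond 2-fold in either direction, with median log2 ratios of 0.10 and -0.14. Among 18 glycolysis and pyruvate genes, Pdk1 was higher, and Hk1 (29.0, 11.4 and 9.59 CPM) and Ldhb (576, 252 and 196 CPM) were at least 2-fold lower. Ldha, the other main lactate dehydrogenase subunit, was 788, 1294 and 1433 CPM, 1.64-fold higher at 5 ng/ml (1.62 to 1.66).

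Imprinted genes, which are expressed from 1 parental allele, were the group with the most full-change members. Of 13 measured, 6 were at least 2-fold higher and 0 lower, with a median log2 ratio of 0.93, and 4 of the 6 were full-change genes (Meg3, Rian, Peg10 and Mest). Meg3 (ENSMUSG00000021268, mm10 chr12:109541001-109571726, plus strand), a maternally expressed long non-coding RNA, was 47.0, 205 and 216 CPM, 4.35-fold higher at 5 ng/ml (4.15 to 4.56). Rian, the next non-coding transcript of that locus, was 16.2, 68.0 and 71.0 CPM, and Mirg, the third, was 3.34, 12.9 and 14.4 CPM. The 3 transcripts lie in a row on the plus strand of chromosome 12, so their counts need not be independent. Peg10, a paternally expressed gene derived from a retrotransposon, was 3.08, 29.8 and 35.2 CPM, 9.68-fold higher (8.11 to 11.6), and the paternally expressed Mest was 16.9, 45.9 and 50.6 CPM. In the library at 5 ng/ml, 1 cell held 185 of the 2174 Peg10 UMIs, and Peg10 was 9.52-fold higher with the top cell of each library left out. Snrpn was 122, 284 and 326 CPM and reached 85.9% of its log2 change. It overlaps the full-change genes Snhg14 (30.8, 77.7 and 75.9 CPM) and Gm38393 (14.8, 29.7 and 29.8 CPM) or lies beside them on the same strand, and reads of the 3 may have been split between them. Igf2r (23.3, 21.8 and 20.5 CPM), Impact (76.6, 82.3 and 75.6 CPM) and Peg3 (27.3, 35.6 and 30.4 CPM) stayed within 2-fold. Mirg and Peg10 were below 5 CPM without ligand and were measured only through the libraries with ligand.

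The sum of the imprinted genes in a cell shifted as a whole. Its median was 12 UMIs per thinned cell without ligand, 24 at 5 ng/ml and 26 at 50 ng/ml, and 63.2% of the cells at 5 ng/ml lay above the 95th percentile of the cells without ligand. Meg3 was detected in 45.1%, 88.7% and 89.5% of cells, and Rian in 26.2%, 65.7% and 70.9%.

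**Figure D2:**
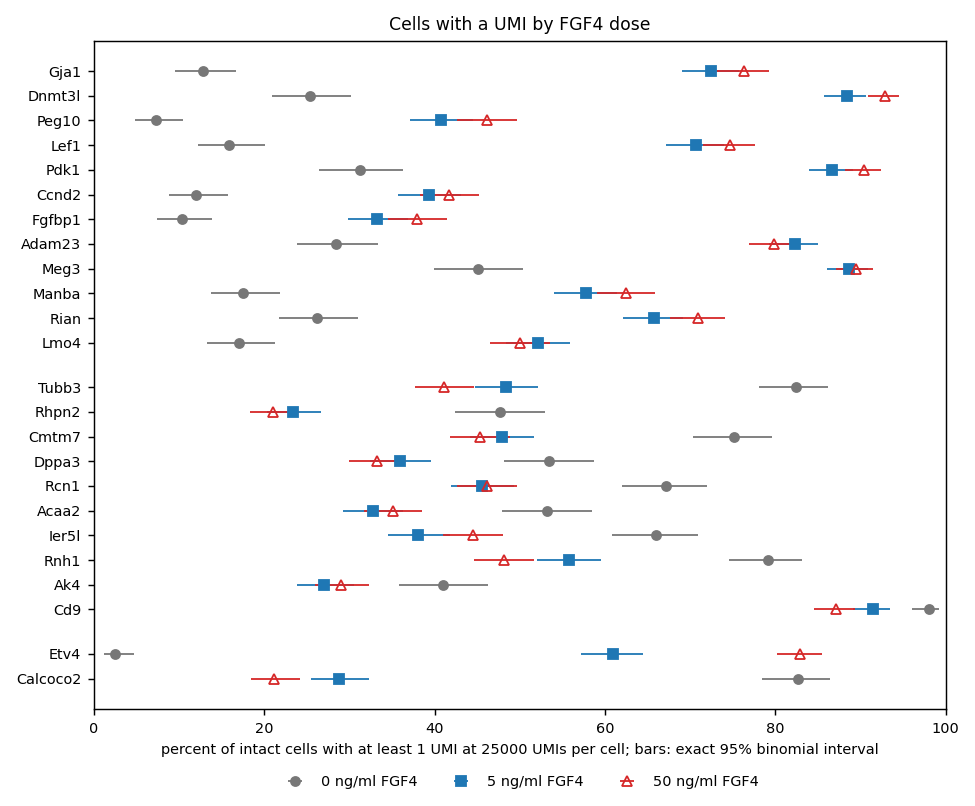
Percent of intact cells with at least 1 UMI of each gene after thinning every cell to 25000 UMIs, by FGF4 dose, with exact 95% binomial intervals over cells. The 5 and 50 ng/ml points lie within a few percentage points of each other for most full-change genes, as in Gja1 (72.5% and 76.3%), and well apart from the 0 ng/ml point (12.8%), while Etv4 runs 2.51%, 60.9% and 83.0%.

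The remaining higher genes of the full-change set had smaller ratios, from 2.01 to 2.83, apart from the predicted genes and 1 small RNA described below. Lin28a, an RNA-binding protein of pluripotent cells, was 75.8, 172 and 180 CPM. Dstn, which encodes the actin-depolymerizing protein destrin, was 308, 694 and 673 CPM and was the most abundant member. Almost every cell carried Dstn UMIs at each dose, and the median per thinned cell was 8, 17 and 16. Apela, a ligand of the apelin receptor, was 48.9, 105 and 94.4 CPM. Porcn, the acyltransferase that Wnt ligands need for secretion, was 25.3, 51.5 and 54.0 CPM, and Spred1, an inhibitor of the path from receptor to ERK, was 18.5, 51.0 and 56.4 CPM. The hormone precursor gene Trh was 19.5, 55.1 and 51.5 CPM, the follistatin-like gene Fstl1 was 39.0, 78.2 and 71.0 CPM, and the guidance ligand gene Ntn1 was 11.9, 24.2 and 25.5 CPM. Zfp36l1, an RNA-binding protein that promotes mRNA decay, was 22.2, 46.9 and 45.8 CPM, and Setd1b, a histone H3 lysine methyltransferase, was 18.0, 37.5 and 37.2 CPM. The surface glycoprotein gene Emb, the lysophosphatidic acid receptor gene Lpar4 and the non-coding RNA gene Halr1 were 2.10-fold, 2.69-fold and 2.33-fold higher. In this set 7 of the 39 symbols were predicted genes, with Gm46332 the highest of them by ratio at 26.0, 135 and 114 CPM.

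A few genes were highest at 5 ng/ml and had come part or most of the way back at 50 ng/ml. Bc1, a small non-coding RNA, was 17.2 CPM (16.0 to 18.5), 57.9 CPM (56.1 to 59.6) and 21.7 CPM (20.7 to 22.8), and cells with a UMI made up 24.5%, 50.7% and 32.6%. Snhg9, a small nucleolar RNA host gene, was 22.3, 57.3 and 32.2 CPM. Nutf2-ps1 was 17.2, 44.8 and 30.3 CPM, and the predicted antisense gene Gm13075 was 66.7, 142 and 82.6 CPM. In Bc1, Snhg9 and Gm13075 the libraries at 0 and 50 ng/ml were closer to each other than to that at 5 ng/ml, and the 90% rule takes them in all the same, since it sets no upper limit. Nutf2-ps1 differed from these: on the log2 scale its level at 50 ng/ml was nearer to that at 5 ng/ml. Hook2, a microtubule-linker gene, was 31.0, 63.8 and 31.6 CPM, and Lhfpl4, a tetraspanning membrane protein gene, was 14.5, 30.2 and 20.4 CPM. A single cell at 5 ng/ml held 1132 of the 4647 Hook2 UMIs and 339 of the 2203 Lhfpl4 UMIs. It had 39591 UMIs and 9.97% mitochondrial UMIs, at the edge of the intact limit, and was not called a doublet. With the top cell of each library left out for each gene, Hook2 was 1.73-fold higher and Lhfpl4 1.99-fold higher at 5 ng/ml than without ligand, both under the 2-fold limit. Nutf2-ps1 is a processed copy of another gene, and Snhg9 and Gm13075 are antisense genes in the annotation, so their counts may include reads of related or overlapping transcripts.

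The lower full-change genes were fewer, and the ratios of the 10 named ones were smaller than those of the leading higher genes. Tubb3, which encodes the class III beta-tubulin of neurons (ENSMUSG00000062380, mm10 chr8:123411424-123422015, plus strand), was 108 CPM (105 to 111), 32.0 CPM (30.7 to 33.4) and 28.2 CPM (27 to 29.4). It was 3.37-fold lower at 5 ng/ml than without ligand (3.20 to 3.54) and reached 90.4% of its log2 change, and cells with a UMI made up 82.5%, 48.4% and 41.1%. Dppa3, a maternal-effect factor and marker of naive cells, was 84.7, 37.0 and 34.5 CPM, 2.29-fold lower (2.18 to 2.41). Cd9, a tetraspanin of the stem cell surface, was 212, 105 and 97.3 CPM, at the 2-fold limit (2.02-fold lower, 1.96 to 2.08). The other 7 named genes were Rhpn2 (2.68-fold lower), the MARVEL-domain gene Cmtm7 (2.39-fold), the calcium-binding protein gene Rcn1 (2.16-fold), the mitochondrial thiolase gene Acaa2 (2.12-fold), Ier5l (2.06-fold), the ribonuclease inhibitor gene Rnh1 (2.04-fold) and the mitochondrial adenylate kinase gene Ak4 (2.04-fold). Rcn1, at 54.9, 25.4 and 25.1 CPM, and Rnh1, at 61.4, 30.1 and 29.7 CPM, had no further step from 5 to 50 ng/ml beyond counting error. The levels of Acaa2 (36.4, 17.2 and 18.2 CPM) and Ak4 (29.2, 14.3 and 15.1 CPM) likewise did not differ beyond counting error between the 2 doses.

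The other 6 lower genes (Gm8300, Gm5039, Gm21761, Gm21818, Gm5662 and Gm4340) were predicted genes read from few cells. Gm21761 was 49.6, 3.36 and 29.5 CPM, with a UMI in 2.79%, 1.27% and 4.01% of thinned cells, and Gm4340 was 26.3, 0.810 and 7.09 CPM, with a UMI in 1.11%, 0.283% and 0.752%. All 6 had higher levels at 50 than at 5 ng/ml. The same held for the other 3 measured markers of 2-cell-like cells, a rare state of these cultures: Zscan4c was 12.0, 3.25 and 16.2 CPM, Zscan4d was 7.71, 2.70 and 19.9 CPM and Usp17lc was 5.03, 0.206 and 1.12 CPM. With the top cell of each library left out for each gene, 9 lower genes in place of 16 had full change, and 0 of the 6 predicted genes was among them. All 6 then fell below the limit of 20 CPM in each library. They were still more than 2-fold lower at 5 ng/ml, with log2 ratios from -4.38 to -2.93. With at most 5% mitochondrial UMIs, the median log2 ratio of the 2-cell-like list was 1.22 in place of -2.60. These genes have near-identical copies, so counts may also be split between them.

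**Figure D3:**
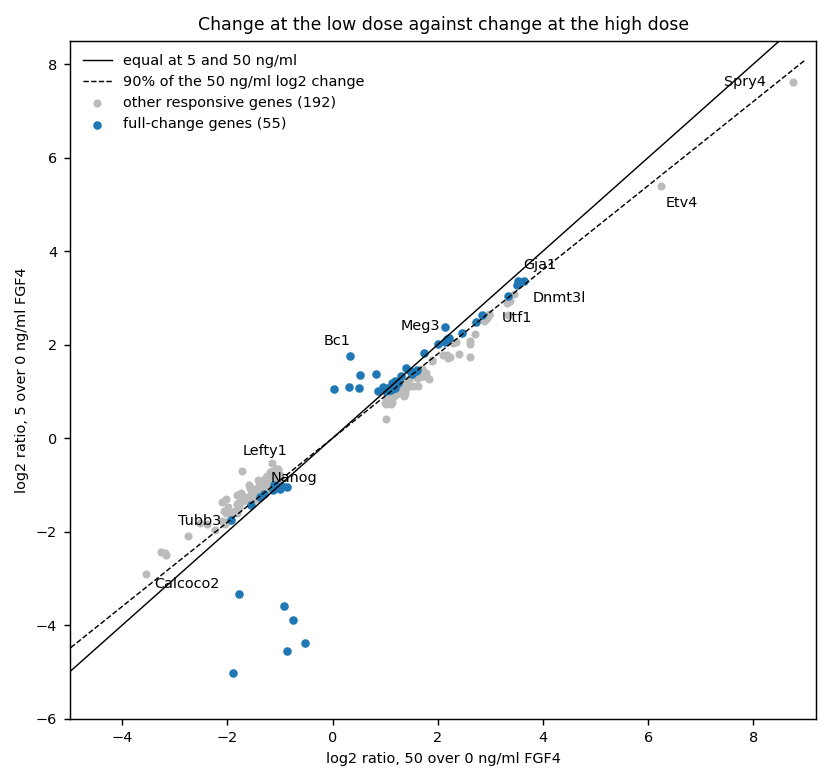
Log2 ratio of 5 to 0 ng/ml against log2 ratio of 50 to 0 ng/ml for the 247 genes at least 2-fold from 0 ng/ml at either dose, with full-change genes in blue. Points near the solid line are as far from 0 ng/ml at 5 as at 50 ng/ml; both axes share the 0 ng/ml library, and the low cluster near -3 to -5 on the vertical axis is the 6 predicted genes read from few cells.

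Measured targets and inhibitors of the FGF and ERK path were mostly 2-fold higher at 5 ng/ml but short of full change. Of 15 measured, 10 were at least 2-fold higher and 1 lower, with a median log2 ratio of 1.46, and only Spred1 met the 90% rule. Of the 10, Spry1, Spry4, Dusp4, Dusp6, Etv4 and Myc were below 5 CPM without ligand and were measured only through the libraries with ligand. The limit therefore largely set the direction of these members. Among members below 5 CPM at every dose, Spred3 was higher (0.664, 2.53 and 3.17 CPM) and Dusp5 was level (2.68, 2.63 and 2.88 CPM). Etv4, an ETS-family transcription factor (ENSMUSG00000017724, mm10 chr11:101769742-101785371, minus strand), was 1.19 CPM (0.880 to 1.56), 49.7 CPM (48.1 to 51.4) and 89.7 CPM (87.6 to 91.8). It was 41.9-fold higher at 5 ng/ml (31.7 to 56.6), and 50 ng/ml added 1.80-fold (1.73 to 1.88). On the log2 scale 86.4% of its change was present at the low dose, and on the CPM scale 54.8%. Spry4, a Sprouty inhibitor, had 3 UMIs without ligand and was 0.0711, 14 and 30.7 CPM, a ratio of 197 at 5 ng/ml (67.4 to 959). Spry2 was 7.37, 41.7 and 54.4 CPM, the phosphatase gene Dusp6 was 1.71, 12.6 and 18.9 CPM, and Myc was 1.64, 13.3 and 19.3 CPM. In all of these the 50 ng/ml library was the highest. Etv5, an ETS factor related to Etv4, was 186, 212 and 189 CPM, and Ccnd1 also stayed within 2-fold. Egr1, an immediate early gene, had the opposite direction at 41.0, 15.9 and 9.53 CPM, and the other 3 measured immediate early genes (Ier2, Klf6 and Klf4) were within 2-fold.

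Formative pluripotency genes spanned the range from full to partial change. Of 12 measured, 6 were at least 2-fold higher and 0 lower, with a median log2 ratio of 1.23. Of the 6, Otx2 and Etv4 were below 5 CPM without ligand and were measured only through the libraries with ligand. Dnmt3l and Lef1 reached full change, Tcf15 (18.2, 62.8 and 96.4 CPM) reached 74.4% of its log2 change, and Otx2, a homeobox factor of the formative state and epiblast, reached 54.5% at 1.90, 5.70 and 14.2 CPM. Pou3f1, a POU factor of the primed state, reached 47.9% at 3.08, 5.60 and 10.7 CPM and was 1.82-fold higher at 5 ng/ml (1.49 to 2.23). Otx2 and Pou3f1 were 2.5-fold (2.23 to 2.81) and 1.91-fold (1.70 to 2.16) higher at 50 than at 5 ng/ml. Foxd3 did not differ beyond counting error between 0 and 5 ng/ml (5.57 and 5.49 CPM) and was 9.88 CPM at 50 ng/ml. The summed list per thinned cell had medians of 5, 16 and 20 UMIs, and 82.7% of the cells at 5 ng/ml lay above the 95th percentile of the cells without ligand. A cell at 5 ng/ml exceeded a cell without ligand in 95.5% of pairs.

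General pluripotency genes were within 2-fold or higher at 5 ng/ml. Utf1, a chromatin-associated factor, was 45.7, 284 and 358 CPM, 6.21-fold higher at 5 ng/ml (5.92 to 6.51) with 88.7% of its log2 change, and Tdgf1, a Nodal co-receptor, was 81.4, 174 and 217 CPM. Pou5f1 was 203, 392 and 383 CPM, 1.93-fold higher (1.88 to 1.97) and so just short of the 2-fold limit, with no further increase at 50 ng/ml. Sox2 (383, 320 and 307 CPM), Dppa5a (3284, 2837 and 2678 CPM) and Sall4 (136, 126 and 125 CPM) were lower at 5 ng/ml by less than 2-fold. Of 11 measured, 3 were at least 2-fold higher (Utf1, Lin28a and Tdgf1) and 0 lower.

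Most naive pluripotency genes were within 2-fold at 5 ng/ml, and their values ran in both directions. Of 21 measured, 5 were at least 2-fold lower (Tfcp2l1, Prdm14, Dppa3, Fgf4 and Spic) and 1 higher (Gbx2, at 15.8, 34.4 and 45.5 CPM), with a median log2 ratio of -0.45. Nanog was 280, 151 and 105 CPM, 1.85-fold lower at 5 ng/ml (1.81 to 1.90), and Tfcp2l1 was 176, 83.7 and 59.4 CPM. Nanog had 62.6% and Tfcp2l1 68.5% of its log2 change at the low dose, and only Dppa3 met the 90% rule. Spic was 10.5, 1.13 and 0.369 CPM. Zfp42 (454, 563 and 487 CPM) and Klf5 (106, 110 and 135 CPM) stayed within 2-fold. Among 9 LIF pathway genes, 1 was at least 2-fold lower (Tfcp2l1) and 1 higher (the receptor gene Cntfr, at 3.86, 18.2 and 25.1 CPM).

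**Figure D4:**
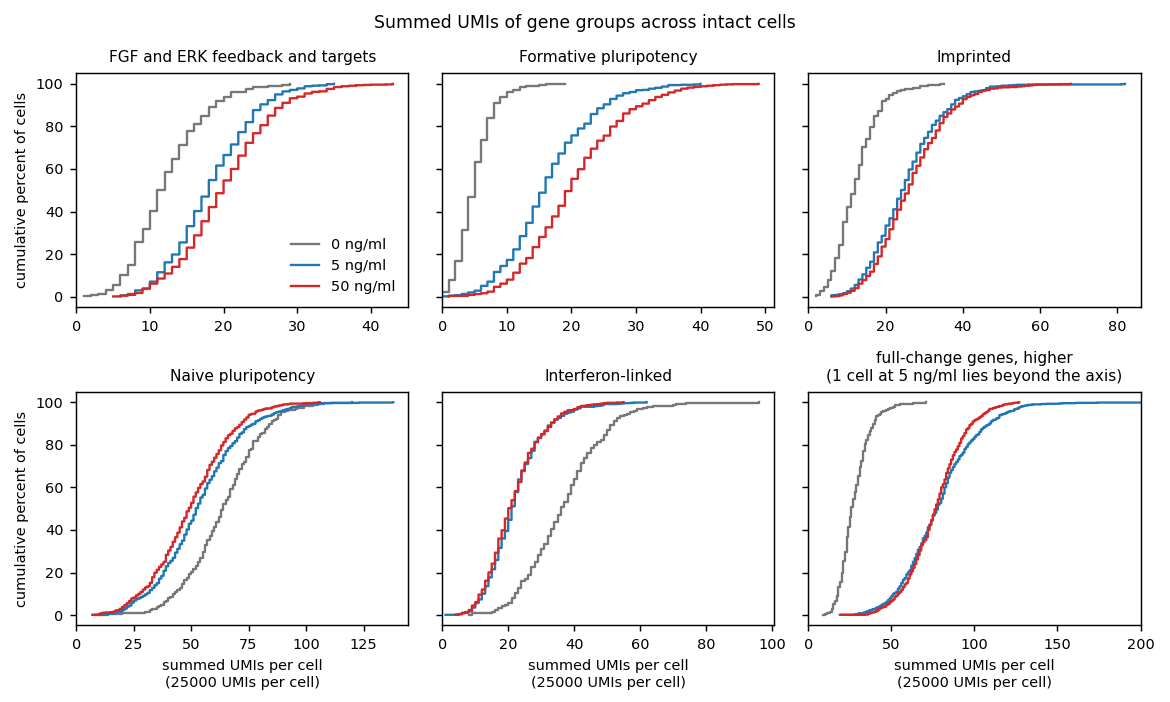
Cumulative percent of intact cells against the summed UMIs of a gene group in each cell, thinned to 25000 UMIs, for 5 gene groups and the 39 full-change higher genes at 0, 5 and 50 ng/ml FGF4. Between 0 and 5 ng/ml each curve except that of the naive group moves as a whole. In the naive group the 5th percentile of cells went from 38 to 24 UMIs, but the 95th only from 89 to 86.8. The 5 and 50 ng/ml curves of the imprinted, interferon-linked and full-change groups nearly coincide, while those of the formative group stand apart (medians 16 and 20 UMIs). In the last panel, 1 cell at 5 ng/ml with 1025 UMIs lies beyond the axis.

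Nodal, BMP, Wnt and Notch genes held examples of both directions. Lefty1, an inhibitor of Nodal, was 101, 61.7 and 30.7 CPM and had the lowest share of log2 change at 5 ng/ml among the lower genes (41.2%), with Slamf1 next (39.4, 27 and 17.7 CPM, 47.0%). Lefty2 was 36.5, 15.6 and 10.3 CPM, and Nodal was 42.0, 35.0 and 30.5 CPM. Fst, which encodes the activin-binding protein follistatin, was 1.75, 10.9 and 12.5 CPM, below the abundance limit of the full-change rule. Of 9 measured Nodal genes, 2 were higher (Tdgf1 and Fst) and 1 lower. Of 7 BMP genes, Bmp4 (4.43, 17.9 and 27.3 CPM), Id1 (2.25, 6.08 and 11.2 CPM) and Id3 (15.5, 51.4 and 72.3 CPM) were at least 2-fold higher and Id4 (12.1, 3.55 and 1.82 CPM) lower. Of 13 Wnt genes, 4 were higher (Lef1, Cdx1, Cdx2 and T) and 1 lower (Sfrp1, a Wnt-binding inhibitor, at 46.8, 13.3 and 8.11 CPM), while the common Wnt target Axin2 was 38.2, 41.6 and 39.3 CPM. Hes1, a Notch-linked repressor, was 84.4, 19.6 and 12.6 CPM, the only 1 of 7 Notch genes beyond 2-fold.

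Genes of other lineages were mostly at low levels. All 5 measured primitive streak genes were beyond 2-fold at 5 ng/ml, all higher, but none passed 20 CPM. Each was below 5 CPM without ligand and was measured only through the libraries with ligand. The limit therefore largely set the direction of this count. T was 2.82, 9.47 and 12.0 CPM, and Eomes was 2.39, 7.03 and 9.52 CPM. Wnt8a had 0 UMIs without ligand and was 5.22 and 6.21 CPM at the 2 doses. Its ratio at 5 ng/ml was 73.3 with 3 UMIs set in place of 0, a value that depends on that setting. The other genes of the 15 on that list were below 5 CPM at every dose and ran in both directions. Gsc was 2.13, 0.453 and 0.191 CPM, Wnt3 was 3.77, 0.796 and 0.713 CPM, and Evx1 was 0.142, 1.52 and 2.65 CPM. Of 8 measured primitive endoderm genes, 2 were lower (Lama1, at 11.2, 2.32 and 1.62 CPM, and Nid1, at 36.4, 10.7 and 8.48 CPM), both matrix genes that other cells make too. Of 5 neuroectoderm genes, Tubb3, Nes (11.4, 3.03 and 3.13 CPM) and Mobp (62.6, 11.4 and 6.84 CPM) were lower and Sox11 (6.02, 35.5 and 45.9 CPM) higher. Of 4 trophectoderm genes, 2 were higher (Cdx2 and Eomes) and 0 lower. Both are also on the streak list and were below 5 CPM without ligand, so they too were measured only through the libraries with ligand. Members below 5 CPM at every dose ran in both directions, as in Krt8 (3.70, 2.15 and 2.14 CPM) and Gata3 (0.332, 0.439 and 0.127 CPM). The list's median log2 ratio of 0.49 turned to -0.43 with totals that left out mitochondrially encoded and ribosomal protein genes. The 12 p53 target genes and 13 mitochondrially encoded genes had 0 members beyond 2-fold, with median log2 ratios of -0.11 and -0.08.

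Calcoco2, which encodes the autophagy receptor NDP52, was the only gene with a lower level among the 4 used to mark the comparison. Its level (ENSMUSG00000006056, mm10 chr11:96099326-96111964, minus strand) was 186 CPM (182 to 190), 24.7 CPM (23.6 to 25.9) and 15.8 CPM (15 to 16.8). It was 7.5-fold lower at 5 ng/ml (7.13 to 7.90), 81.9% of the log2 change and 94.8% of the CPM difference. Cells with a UMI made up 82.7%, 28.8% and 21.2%. No other autophagy gene was lower by 2-fold. Of 18 measured, Calcoco2 alone was at least 2-fold lower and Optn (2.63, 7.85 and 8.36 CPM) the only 1 higher, with a median log2 ratio of -0.14. Smaller decreases were seen in Tfeb (11.9, 7.18 and 6.73 CPM), Ulk1 (73.2, 51.0 and 40.0 CPM) and Map1lc3b (206, 157 and 153 CPM). Sqstm1 (56.5, 50.0 and 43.2 CPM) and Calcoco1 (13.3, 13.1 and 13.0 CPM) also stayed within 2-fold. Nbr1, Atg7 and Wipi2 had small positive log2 ratios.

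Interferon-linked genes were mostly lower and near completion at 5 ng/ml. Ifitm1 was 470, 195 and 174 CPM (88.4% of its log2 change), Ifitm3 was 288, 177 and 180 CPM, and Rnf213 was 37.4, 6.59 and 4.15 CPM. Bst2, which encodes the surface protein tetherin, had the opposite direction at 4.15, 31.8 and 42.8 CPM, 7.66-fold higher at 5 ng/ml (6.57 to 8.99). Of 9 measured, 3 were at least 2-fold lower and 1 higher, with a median log2 ratio of -0.70. Among 14 cell adhesion genes, 3 were higher (Epcam, at 42.2, 94.1 and 111 CPM, Zyx, at 2.54, 15.8 and 25.7 CPM, and Esrp1, at 1.09, 6.64 and 7.71 CPM) and 1 lower (Cd9), while Cdh1 was 104, 75.5 and 71.0 CPM. Of 5 FGF ligand and receptor genes, Fgfbp1 was higher, Fgf4 and Fgfr2 (11.7, 3.98 and 2.89 CPM) were lower, and Fgfr1 was 57.8, 43.2 and 38.6 CPM.

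**Figure D5:**
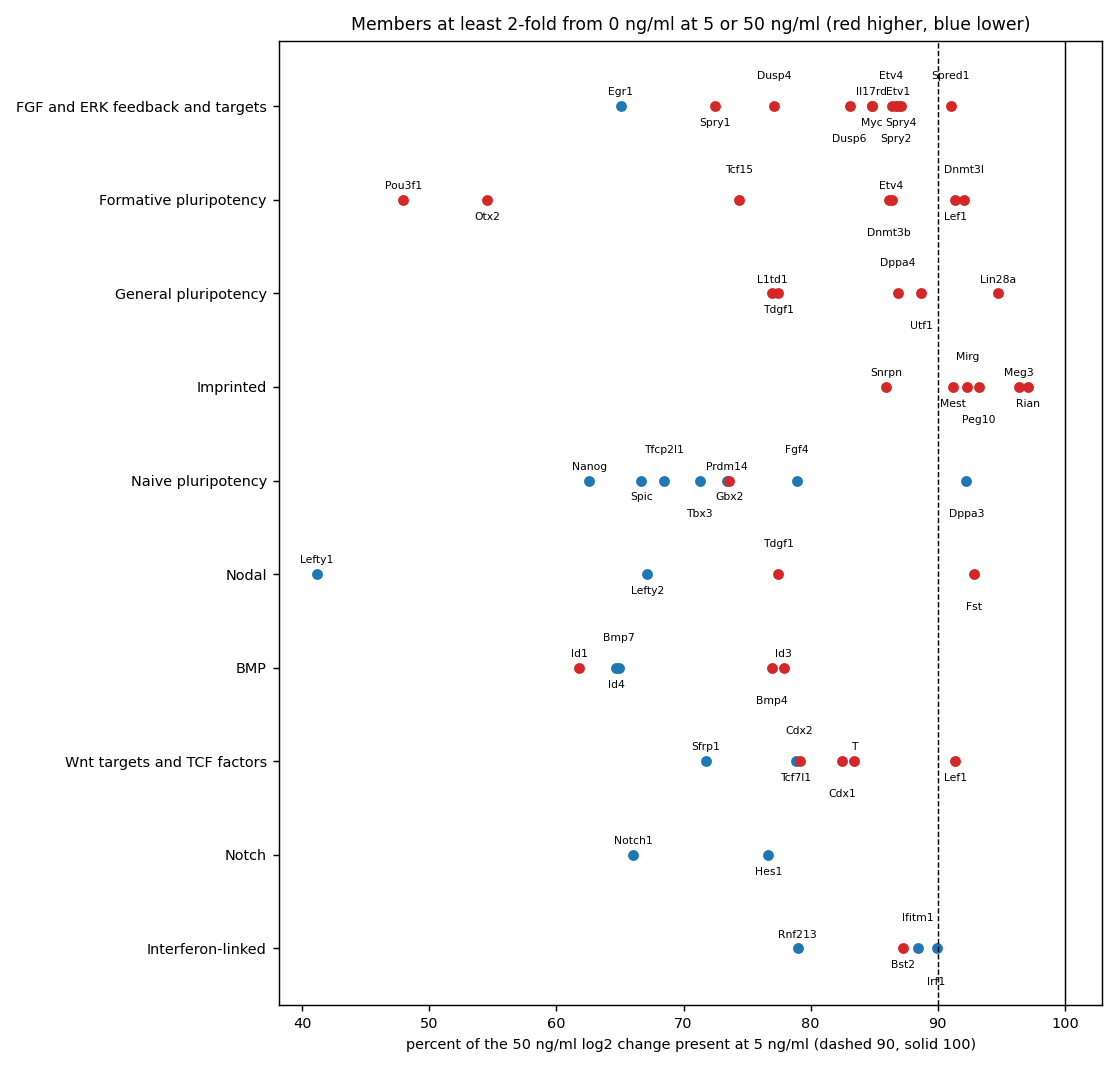
Percent of the 50 ng/ml log2 change present at 5 ng/ml, for members of 10 gene groups with at least 5 CPM in any library and at least 2-fold from 0 ng/ml at either dose, red for higher and blue for lower genes. Imprinted genes lie between 85.9% and 97.1%, and Lefty1 (41.2%), Pou3f1 (47.9%) and Otx2 (54.5%) lie furthest left; genes to the right of the dashed line under 20 CPM are not in the full-change set.

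The genes furthest from completion at 5 ng/ml among the 123 higher genes were Hmces, Slc29a1, Pim2, Exoc3l and Itpk1. Hmces, which shields abasic sites in single-stranded DNA, was 30.9, 40.9 and 62.5 CPM, 1.32-fold higher at 5 ng/ml (1.24 to 1.41), and the only higher gene under 50% of its log2 change. Slc29a1, a nucleoside transporter gene, was 50.6, 83.4 and 110 CPM, and the kinase gene Pim2 was 9.29, 17.3 and 23.7 CPM. Exoc3l (3.41, 11.4 and 21.0 CPM) and Itpk1, an inositol phosphate kinase gene (17.6, 37.9 and 54.1 CPM), were more than 2-fold higher at the low dose. Among the 124 lower genes, 2 had under 50% of the log2 change (Lefty1 and Slamf1), and Tbc1d13 (35.1, 22.3 and 16.5 CPM), the ubiquitin-conjugating enzyme gene Ube2h (23.0, 13.9 and 10.0 CPM) and the ESCRT gene Chmp4c (23.1, 14 and 10.2 CPM) followed, with 60.1%, 60.5% and 60.7%.

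Across single cells, the sum of the full-change higher genes, though not each gene, shifted in nearly the whole population at 5 ng/ml. The summed UMIs of the 39 higher genes per thinned cell had medians of 26, 78 and 77, the lowest 5% of the cells at 5 ng/ml lay at or below 45, and the top 5% of the cells without ligand lay at or above 44. The 10 named lower genes summed to medians of 17, 7 and 7. These genes were chosen on the same cells, so the separation is a description. Single genes overlapped more: the median Gja1 count per thinned cell was 0, 1 and 2 UMIs, and that of Dnmt3l was 0, 3 and 4 UMIs. At 5 ng/ml, Ccnd2, Peg10 and Fgfbp1 had a UMI in 39.4%, 40.8% and 33.3% of thinned cells. Dstn alone gave a mean of 17.6 of the 80.1 UMIs in the sum of the 39 higher genes. The sum therefore does not say that each gene shifted in each cell.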

How the data were processed

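The deposited values were UMI counts per gene and cell barcode, 10x Genomics 3' data counted with Cell Ranger 4.0.0 per the file headers and aligned to mm10 per the submitters' processing notes. The annotation release, the choice of barcodes and which of trypsin or Accutase detached each library are not given in the sources used here.

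UMI counts of intact cells were summed per library and scaled to CPM. Levels carry Poisson, ratios conditional binomial and shares exact binomial 95% intervals, which cover only counting error, and 3 UMIs made up 0.0711, 0.0412 and 0.0382 CPM at 0, 5 and 50 ng/ml. A sum of 0 was set to 3 UMIs in ratios. A list member was measured at 5 CPM in any library. A member below 5 CPM without ligand could thus enter only through a library where it was higher, and the reverse. Counts of higher and lower members carry this selection. Shares of cells and sums per cell used cells thinned to 25000 UMIs, which left out 0 intact cells. Doublets called with Scrublet in scanpy 1.11.5 (16, 13 and 3 cells) were kept. At 50 ng/ml that is 0.376% of cells.

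Named genes were Etv4, Dnmt3l, Gja1 and Calcoco2, the 12 full-change genes with the largest ratio per direction, the 5 with the lowest share of change, those that came back towards 0 ng/ml by at least 1.2-fold and members of 29 gene lists, with predicted symbols and ribosomal protein genes left out of ranks. 1 list member is not reported here. The remaining full-change genes were named to account for the set. The members, rules and lists were chosen with earlier results of these data known. The alternatives were TMM (edgeR 4.0.16, R 4.3.3) and median-of-ratios scaling, mean share per cell, totals without mitochondrially encoded and ribosomal protein genes, other cell filters, thinned cells and other limits. Leaving out 2-cell-like cells (the top 1% by that list) and leaving out the top cell for each gene were chosen after seeing the data. Gene coordinates came from GENCODE M21 (32158 of 32285 identifiers matched). On simulated libraries, the intervals held the true ratio for 95.7% of 5443 genes, and 50 of 50 higher and 49 of 50 lower genes set to full change were called. Python 3.11.15 with numpy 2.4.6, scipy 1.17.1, pandas 2.3.3 and matplotlib 3.10.9 was used.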

Additional observations from a re-analysis of the deposited data

Results flagged for a closer look

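Barcodes outside the intact limits were not used in the comparison. They made up 19.2% of the barcodes at 5 ng/ml (168 of 874, exact 95% binomial interval 16.7% to 22.0%), against 3.75% without ligand (14 of 373, 2.07% to 6.22%) and 18.2% at 50 ng/ml (177 of 975, 15.8% to 20.7%). At 5 ng/ml 133 of them were over the mitochondrial limit and 157 were under the UMI limit, against 12 and 11 without ligand. They are noted here because their share in the library with ligand lies above that in the control library. With all barcodes kept, 80 genes were at least 2-fold higher and 75 lower at 5 ng/ml, and all 55 full-change genes were kept.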

How the results depend on the processing

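No paired analysis was possible because each dose was 1 library and the labels give no replicate numbers. The limits move the counts most. At a minimum of 5 CPM there were 197 higher, 203 lower, 87 full-change higher and 51 full-change lower genes, and at 50 CPM 43, 29, 23 and 6. At 1.5-fold they were 209, 222, 107 and 51, and at 3-fold 30, 22, 15 and 7. With full change set at 80% there were 75 higher and 43 lower. On the CPM scale 27 of the 39 higher full-change genes remained, 37 lower genes had full change and the medians were 77.8% for higher and 87.1% for lower genes, and with a ratio of 50 to 5 ng/ml within 1.2-fold there were 28 lower full-change genes. Without the top cell of each library for each gene, 9 lower genes had full change.

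Across the 10 alternative scalings and sets of cells, 21 of the 39 higher genes kept full change in all of them and 3 of the 16 lower genes did (Cmtm7, Ier5l and Rnh1). Totals without mitochondrially encoded and ribosomal protein genes gave 99 higher and 99 lower genes. At most 5% mitochondrial UMIs left 135, 310 and 247 cells, in which 29 of the 39 and 8 of the 16 were shared, Calcoco2 had 90.8% of its log2 change and the log2 ratio of Hook2 was 0.02. The median log2 ratio of the trophectoderm list turned to -0.43 with those totals, and that of the 2-cell-like list to 1.22 at 5% mitochondrial UMIs. The causes were not tested. Of 390 log2 ratios of named genes under these alternatives, 347 moved little and 43 moved more, with 0 changes of sign. Of 390 shares of the log2 change of these genes, 332 moved by less than 5 percentage points and 58 moved more. Of 343 list medians, which include those at other CPM limits, 302 moved by less than 0.1, 39 moved more and 2 changed sign.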
